A study of Mus musculus with 8 samples.

Results

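The inflammatory CC chemokines are small secreted proteins that draw leukocytes to sites of infection or injury. The set described here holds 9 mouse genes, Ccl2, Ccl7, Ccl8, Ccl12, Ccl3, Ccl4, Ccl6, Ccl9 and Ccl5, of 18193 genes represented on the arrays. The genes were chosen by name, with earlier results of these data known. Every probe set whose single gene symbol in the platform annotation is one of the 9 was taken. This gave 11 probe sets: 2 each for Ccl6 and Ccl9 and 1 for each other gene. RNA was measured on 8 Affymetrix arrays from mice, 2 arrays each of Aire-knockout spleen, Aire-wild-type spleen, Aire-knockout lymph node and Aire-wild-type lymph node, lettered A and B within a group. Aire is the autoimmune regulator, which drives the display of tissue antigens in the thymus, and the study concerned cells that express it outside the thymus. The labels name no allele, strain, age, sex, cell type or sorting step, nor whether the A and B arrays of a group come from different animals. The p-values below therefore measure array-to-array spread. Sex-linked signal, given below, differed between the A and B arrays of each group, so these arrays were not repeats of 1 RNA sample. How much of the spread lies between animals is not known.

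CC chemokines bind receptors coupled to G proteins on monocytes, macrophages, T cells, NK cells and granulocytes, and cells move up the resulting gradient. Ccl2, Ccl7 and Ccl12 attract monocytes through Ccr2, and mouse Ccl8 acts through Ccr8. Ccl3 and Ccl4 are the macrophage inflammatory proteins, and Ccl3 acts through Ccr1, as Ccl6 and Ccl9 do. Ccl5, also called RANTES, binds Ccr1 and Ccr3 and is made by T cells, NK cells and mature dendritic cells. In lymphoid tissue macrophages and dendritic cells make most of the others after stimulation by microbial products, interferons or tumour necrosis factor.

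All 9 genes lie on chromosome 11, in 2 runs of neighbouring genes in RefSeq's annotation of GRCm38.p6. In the first run Ccl2 is followed by Ccl7, Ccl11, Ccl12, Ccl8 and Ccl1, and in the second Ccl5 is followed by Ccl9, Ccl6, Ccl3 and Ccl4. RefSeq's promoter table for GRCm38.p6 matched 5 of the 9 members, Ccl8, Ccl12, Ccl3, Ccl6 and Ccl9. The 250 bases before the start of Ccl8, the member with the largest averaged knockout minus wild-type difference, are shown with those of its neighbour Ccl12 and of Ccl9, the member with the most negative difference in spleen. They lie on the plus strand at chr11:82114935-82115184 for Ccl8 and chr11:82101595-82101844 for Ccl12, and on the minus strand at chr11:83578637-83578886 for Ccl9. Each reads 5′ to 3′ along the gene's own strand, and capitals mark matches to the motifs named after them.
Ccl8: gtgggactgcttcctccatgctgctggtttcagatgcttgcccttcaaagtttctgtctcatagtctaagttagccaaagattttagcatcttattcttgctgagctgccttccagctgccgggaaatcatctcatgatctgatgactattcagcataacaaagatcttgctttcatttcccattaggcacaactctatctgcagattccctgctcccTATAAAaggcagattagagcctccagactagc
Ccl12: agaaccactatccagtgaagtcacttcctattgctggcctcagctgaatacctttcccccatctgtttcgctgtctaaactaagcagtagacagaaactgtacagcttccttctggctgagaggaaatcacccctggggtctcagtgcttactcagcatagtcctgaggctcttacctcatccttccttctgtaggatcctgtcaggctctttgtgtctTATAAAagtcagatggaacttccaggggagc
Ccl9: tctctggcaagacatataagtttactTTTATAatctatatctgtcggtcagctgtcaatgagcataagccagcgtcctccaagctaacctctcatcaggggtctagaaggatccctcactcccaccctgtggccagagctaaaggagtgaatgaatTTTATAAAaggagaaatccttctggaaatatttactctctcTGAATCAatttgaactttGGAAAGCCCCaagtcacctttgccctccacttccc

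Both strands were searched for the TATA box (TATAAA), the interferon-gamma activated site GAS (TTCNNNGAA), the core of the interferon-stimulated response element (GAAANNGAAA), the AP-1 site (TGANTCA) and the NF-kB consensus. The TATA box begins 32 bases before the start in Ccl8 and 31 bases before it in Ccl12, and is present in 12.4% of all 32851 promoters of the same length. Ccl9 holds 3 matches to it, of which a pair on opposite strands overlap, and also 1 match each to AP-1 (6.75% of promoters) and to the NF-kB consensus (7.25%), of which the NF-kB match begins 35 bases before the start. No member's window held a GAS (7.02% of promoters) or an interferon response core (2.98%), and Ccl3 and Ccl6 held none of the 5 motifs. In a global alignment of the 250 bases Ccl12 and Ccl8 shared 60.0% of bases, the highest of the 10 pairs among the 5 members, and no other pair shared more than 57.2%. Ccl6 and Ccl9, also neighbours, had the longest run of identical bases, 13, against 7 to 9 in the remaining pairs.

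Signals are Affymetrix MAS5 intensities on a linear scale, shifted here to a common array median; a floor of 9.58 (the 20th percentile of all signals) was applied before log2 values were taken. Levels of different probe sets are not comparable, so each gene is compared only with itself across arrays. Genes with a signal above 59.0, the pooled median, on at least 2 arrays were tested, 11557 in all. All 9 members passed this filter, but Ccl7 passed it through both knockout lymph node arrays alone, so it could hardly fail to differ there. A limma model fitted 1 mean per group, and a call needed an adjusted p (Benjamini-Hochberg) under 0.05. The model called 0 of 11557 genes (0%) in each comparison below, members included. At an unadjusted p under 0.05 limma gave 973 genes in spleen (8.42%), 391 in lymph node (3.38%) and 924 for the average of both tissues (8.00%). Differences below are log2 values with SE (±), and none of them passed.

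The targeted gene, Aire, had signals of 1010 and 2380 in knockout spleen, against 5040 and 5200 in wild-type spleen, and of 791 and 1140 in knockout lymph node, against 3050 and 3530 in wild-type lymph node. Its averaged difference was -1.76 ± 0.33 (limma adjusted p = 0.237), and the labels do not place its probe set relative to the deletion. Of the defining stromal markers of the tissues, the spleen genes Tlx1 and Nkx2-5 did not pass the filter on low signals, and Chst4, of lymph node high endothelium, lay under the floor on every array. The labelled tissue can therefore not be checked through them. Of the listed lymph node genes 4 were tested, and limma called none of them. Spleen minus lymph node, they differed by -0.85 ± 0.72 (Madcam1), -0.03 ± 0.92 (Glycam1), -0.08 ± 0.74 (Lyve1) and 0.0004 ± 0.50 (Prox1). Of the listed spleen genes 3 were tested, also without a call: Spic at 0.68 ± 0.29, Cd163 at 0.57 ± 0.56 and Marco at -0.06 ± 0.555. Sex-linked signal differed between arrays in a way that repeated by letter in both tissues. Xist, the RNA of the inactive X chromosome, was at 14.6 and 23.1 on the knockout B arrays of spleen and lymph node and at 3560 to 7620 on the 6 others. The summed signal of 3 Y-linked genes was 718 to 3010 on the knockout arrays, against 55.1 and 43.2 on the wild-type A arrays and 2140 and 2330 on the wild-type B arrays. The knockout A and wild-type B arrays thus had both high Xist and Y-linked signal, and whether RNA was pooled is not stated. The labels do not say whether arrays of 1 genotype and letter share animals across tissues, and the averaged test and its permutation treat the tissues as independent. With genotype and letter as a random block across tissues, an alternative added after the data were seen, the averaged adjusted p was 0.341 for Ccl2, 0.318 for Ccl7 and 0.316 for Ccl8.

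Among the monocyte chemoattractants, Ccl2, Ccl7 and Ccl8 had higher signals on every knockout array than on either wild-type array of the same tissue. Of all genes tested 3.06% had this pattern. Ccl7 passed the filter through the knockout lymph node arrays alone, so its separation there is no independent result. Ccl8 had the largest averaged difference of the 9 genes, 4.83 on the log2 scale, and was 21.4-fold higher in knockout lymph node. Ccl12, the remaining member of the run, was higher on both knockout arrays in lymph node (14.6% of all genes tested) but on 1 of 2 in spleen.

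Ccl8 had signals of 1210 and 279 in knockout spleen, against 24.8 and 6.36 in wild-type spleen, the last under the floor. In lymph node its signals were 4510 and 1450 in knockout, against 375 and 38.0 in wild-type. Within each group array A was higher than array B, and every knockout array of a tissue lay above both wild-type arrays. The difference was 5.24 ± 1.23 in spleen and 4.42 ± 1.23 in lymph node (limma adjusted p = 0.373 and 0.9998), and 4.83 ± 0.87 averaged over tissues (adjusted p = 0.237). With 1 array left out at a time the spleen value ranged from 4.18 to 6.29 and the lymph node value from 2.76, without wild-type array B, to 6.07, without wild-type array A. The size in spleen depends on the floor, since both wild-type signals are low: it was 5.53 without a floor and 4.05 with the floor at the 40th percentile.

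Ccl2, the main attractant of Ccr2-positive monocytes, had signals of 135 and 165 in knockout spleen, against 54.7 and 42.3 in wild-type spleen. In lymph node they were 343 and 269 in knockout, against 154 and 90.5 in wild-type. The groups did not overlap in either tissue, and the difference was 1.64 ± 0.38 in spleen (3.11-fold) and 1.36 ± 0.38 in lymph node (2.58-fold), with limma adjusted p = 0.373 and 0.9998. Averaged over tissues it was 1.501 ± 0.27 (2.83-fold, adjusted p = 0.237), and its unadjusted p ranked 39 among 11557 genes. Leaving out 1 array moved the averaged value between 1.31 and 1.69, and the lymph node value between 0.98, without wild-type array B, and 1.75, without wild-type array A.

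Ccl7, which attracts monocytes and also eosinophils, was dim. Knockout spleen gave 30.3 and 27.6, against 15.3 and 8.16 in wild-type spleen, and knockout lymph node gave 190 and 112, against 37.1 and 18.8 in wild-type lymph node. All 4 spleen signals lay under the filter level of 59.0, and wild-type array B under the floor. The difference was 1.25 ± 0.47 in spleen (adjusted p = 0.559), 2.46 ± 0.47 in lymph node (adjusted p = 0.653) and 1.86 ± 0.33 averaged (adjusted p = 0.237). With the floor at the 40th percentile all 4 spleen arrays lay at the floor, and the spleen difference was 0.

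Ccl12, a mouse chemokine close to Ccl2, had signals of 377 and 4.69 in knockout spleen, against 19.3 and 0.591 in wild-type spleen. In lymph node they were 669 and 254 in knockout, against 152 and 1.72 in wild-type. Of the 8 signals 3 lay under the floor, all on B arrays: those of knockout spleen, wild-type spleen and wild-type lymph node. The spleen difference of 2.14 ± 1.86 was -0.51 without knockout array A and 4.79 without knockout array B. In lymph node it was 3.44 ± 1.86, and 1.44 without wild-type array B and 5.43 without wild-type array A. Without any floor it was 4.67 there, above the 4.42 of Ccl8. Averaged it was 2.79 ± 1.31 (adjusted p = 0.667), and 1.46 without knockout spleen array A and 4.11 without knockout spleen array B.

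**Figure D1:**
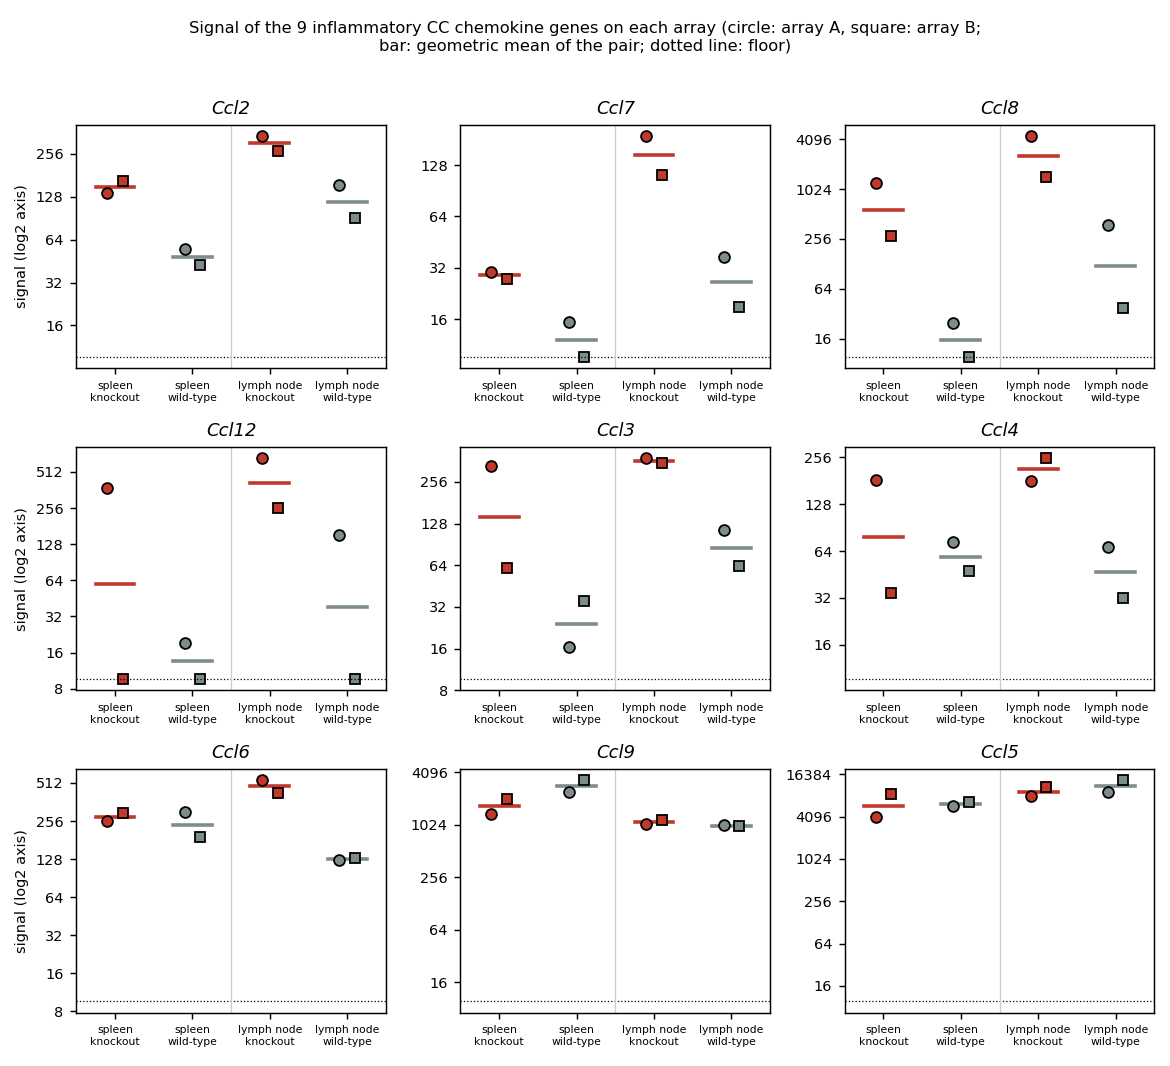
Signal of each of the 9 genes (1 probe set a gene, log2 axis, values under the floor of 9.58 drawn at it) on the 8 arrays, knockout in red and wild-type in grey. The bars are geometric means of the 2 arrays of a group. Ccl2, Ccl7, Ccl8 and Ccl3 lie higher on both knockout arrays in both tissues, as 3.06% of all genes tested do. Ccl5 spans 1.75 on the log2 scale over all arrays.

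In the second run of genes, Ccl3, Ccl4, Ccl6 and Ccl9 had higher signals on both knockout lymph node arrays than on either wild-type one. Of all genes tested 14.6% did. In spleen this held for Ccl3 alone, and for 13.3% of all genes tested. Ccl9 went the other way in spleen, with lower signals on both knockout arrays. The share of all genes with that spleen pattern was not counted. None passed the test across all genes.

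Ccl3, an attractant of macrophages, T cells and NK cells, had signals of 335 and 61.2 in knockout spleen, against 16.5 and 35.3 in wild-type spleen. Knockout lymph node gave 382 and 349, against 116 and 63.4 in wild-type lymph node. The difference was 2.57 ± 0.81 in spleen (5.93-fold) and 2.09 ± 0.81 in lymph node (4.26-fold), with limma adjusted p = 0.485 and 0.9998. Without knockout array A the spleen difference was 1.34, and without knockout array B it was 3.79. Ccl4, the other macrophage inflammatory protein of the pair, had 182 and 34.5 in knockout spleen, against 73.1 and 47.5 in wild-type spleen, so the groups overlapped. In lymph node it had 181 and 254 in knockout, against 67.8 and 32.1 in wild-type, without overlap. Its difference was 0.43 ± 0.79 in spleen and 2.20 ± 0.79 in lymph node (limma adjusted p = 0.913 and 0.9998), and the spleen value was -0.77 without knockout array A and 1.62 without knockout array B.

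Ccl6, made by macrophages and neutrophils in mice, had signals of 540 and 429 in knockout lymph node, against 125 and 130 in wild-type lymph node. In spleen the groups overlapped, with 255 and 294 in knockout, against 300 and 190 in wild-type. The lymph node difference was 1.92 ± 0.35 (3.78-fold, limma adjusted p = 0.615), and leaving out 1 array moved it between 1.75 and 2.08. In spleen it was 0.20 ± 0.35, and -0.13 without wild-type array B. The knockout effect in spleen minus that in lymph node was -1.72 ± 0.49 (limma adjusted p = 0.999). The second Ccl6 probe set gave 178 and 29.3 in knockout spleen, against 39.6 and 39.2 in wild-type spleen. In knockout lymph node it gave 138 and 217, against 41.7 and 11.6 in wild-type lymph node. In a fit of all probe sets its difference was 2.98 ± 1.05 in lymph node and 0.87 ± 1.05 in spleen, the same directions as the brighter probe set.

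Ccl9, a Ccr1 ligand made by myeloid cells in mice, had signals of 1370 and 2030 in knockout spleen, against 2460 and 3330 in wild-type spleen. Knockout lymph node gave 1050 and 1150, against 1010 and 989 in wild-type lymph node. The difference was -0.78 ± 0.34 in spleen (1.72-fold lower, adjusted p = 0.605) and 0.14 ± 0.34 in lymph node (adjusted p = 0.9998). Its second probe set gave 167 and 186 in knockout spleen, against 256 and 320 in wild-type spleen. In knockout lymph node it gave 182 and 145, against 143 and 77.9 in wild-type lymph node. The fit of all probe sets put it at -0.70 ± 0.33 in spleen and 0.62 ± 0.33 in lymph node, so both probe sets had a negative difference in spleen and a positive one in lymph node. The test of the difference between tissues gave -0.92 ± 0.48 for the brighter probe set (adjusted p = 0.999).

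Ccl5 had signals of 4050 and 8510 in knockout spleen, against 5880 and 6680 in wild-type spleen, and the knockout arrays lay on both sides of the wild-type ones. In lymph node it had 8080 and 10700 in knockout, against 9340 and 13600 in wild-type, and the groups overlapped again. It differed between knockout and wild-type by -0.09 ± 0.44 in spleen, a sign that turned under both other scalings, and by -0.28 ± 0.44 in lymph node. Averaged, the difference was -0.19 ± 0.31, with a 95% interval from -0.93 to 0.55 (limma adjusted p = 0.907). This interval does not exclude a change of the size seen for Ccl9. The summed signal of 6 NK and cytotoxic cell markers was 400 to 515 on the knockout arrays and 236 to 508 on the wild-type arrays, most of it from Prf1, at 213 to 438. Klrd1 lay above the floor on all 8 arrays, and Nkg7 and Ncr1 under it on 7. The summed signal of the T cell markers was 531 to 2070 on the knockout arrays and 473 to 1310 on the wild-type arrays.

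**Figure D2:**
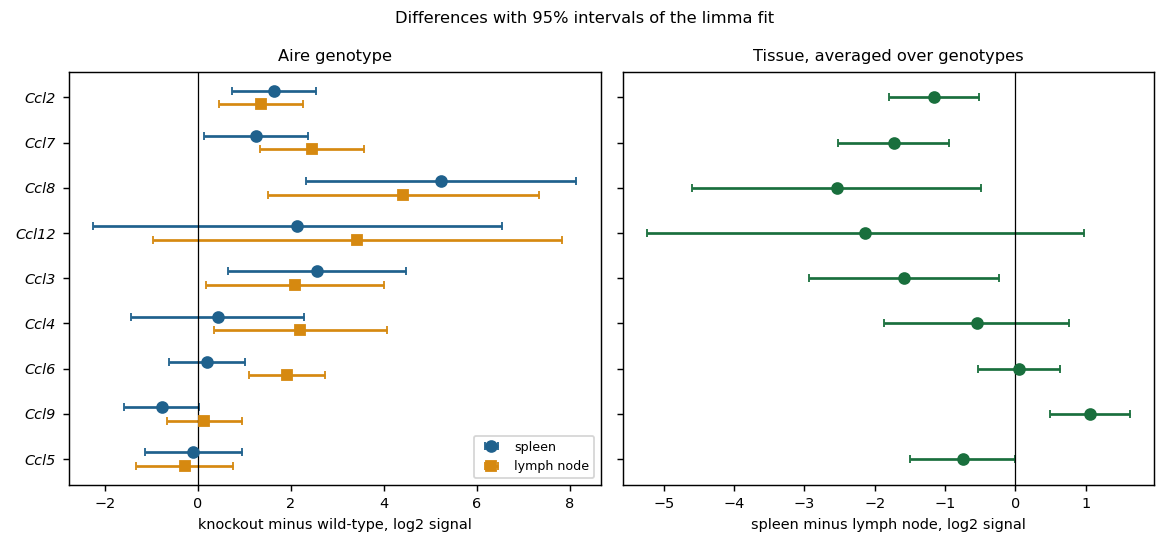
Knockout minus wild-type differences in each tissue (left) and spleen minus lymph node differences averaged over genotypes (right), on the log2 scale, with 95% intervals from the limma fit, for the 9 genes. The intervals of Ccl2, Ccl7, Ccl8 and Ccl3 lie above 0 in both tissues, unadjusted for the number of genes, and those of Ccl12, Ccl9 and Ccl5 cross 0 in both.

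Taking the 9 genes as a list, 7 had a positive difference in spleen, 8 in lymph node and 7 on average, against 42.6%, 46.8% and 43.3% of all genes tested. The list was chosen with earlier results of these data known, so its counts and medians are a description and not a test. Knockout arrays lay above the wild-type arrays of the tissue for 4 members in spleen (13.3% of all genes tested) and for 8 in lymph node (14.6%). The 4 were Ccl2, Ccl7, Ccl8 and Ccl3 in both tissues at once, a pattern that 3.06% of all genes tested had. Ccl7 passed the filter through the knockout lymph node arrays alone. Its place in the lymph node, both-tissue and averaged results of this paragraph, permutation included, is therefore no independent result. At an unadjusted p under 0.05 the same 4 were higher in knockout spleen (3.86% of genes), and Ccl4 and Ccl6 joined them in knockout lymph node (1.74%). For the averaged effect 5 members reached that level, Ccl2, Ccl7, Ccl8, Ccl3 and Ccl6, all higher (3.65%). At an adjusted p under 0.05 the share was 0% in all of these comparisons. The median difference of the members was 1.25 in spleen, 2.09 in lymph node and 1.501 averaged, beside -0.09, -0.03 and -0.06 over all genes tested. With arrays left at their deposited medians, the median over all genes in spleen was 0.019, a shift of 0.11, and Ccl5 alone among the members changed sign there. The comparison of the 2 tissue effects gave a median of -0.92 over the members, with 4 of 9 above 0 (46.2% of all genes). At an unadjusted p under 0.05 it gave 1 member, Ccl6, on the negative side (1.89% of genes, 3.42% on either side). The arrays cannot give a smaller exact two-sided permutation p than 0.0556 when genotype is exchanged within tissue over 36 assignments. That value was reached by Ccl2, Ccl7, Ccl8 and Ccl3, against 0.167 for Ccl4 and Ccl6, 0.222 for Ccl12, 0.389 for Ccl9 and 0.556 for Ccl5.

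Macrophage markers moved with these genes. Their mean log2 signal over 12 markers was 9.72 and 7.46 in knockout spleen, against 6.97 and 5.32 in wild-type spleen, and 9.63 and 8.12 in knockout lymph node, against 7.94 and 6.16 in wild-type lymph node. Of the 12 markers 11 were higher in knockout in each tissue, against 42.6% of all genes tested in spleen and 46.8% in lymph node. Adgre1, Siglec1 and Cd5l passed the filter through knockout arrays alone, so their higher knockout signal is no independent result. None of the 12 lay under the floor on all arrays. Their summed signal was 4780 to 33000 on the knockout arrays and 1060 to 15400 on the wild-type arrays. Over the 8 arrays this mean correlated at r = 0.93 with Ccl8, 0.89 with Ccl12, 0.81 with Ccl3, 0.78 with Ccl2, 0.76 with Ccl4 and Ccl7, 0.54 with Ccl6, -0.34 with Ccl5 and -0.55 with Ccl9, over points that share the 4 groups. Its part in the chemokine differences was not tested. In bulk RNA fewer cells of a type and less RNA per cell cannot be told apart.

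Without both knockout A arrays the averaged difference was 3.89 for Ccl8, 1.49 for Ccl2, 1.68 for Ccl3, 1.03 for Ccl6 and 1.12 for Ccl12. On the arrays left the mean log2 signal of the macrophage markers was 7.46 in knockout spleen, against 6.97 and 5.32 in wild-type spleen, and 8.12 in knockout lymph node, against 7.94 and 6.16 in wild-type lymph node.

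**Figure D3:**
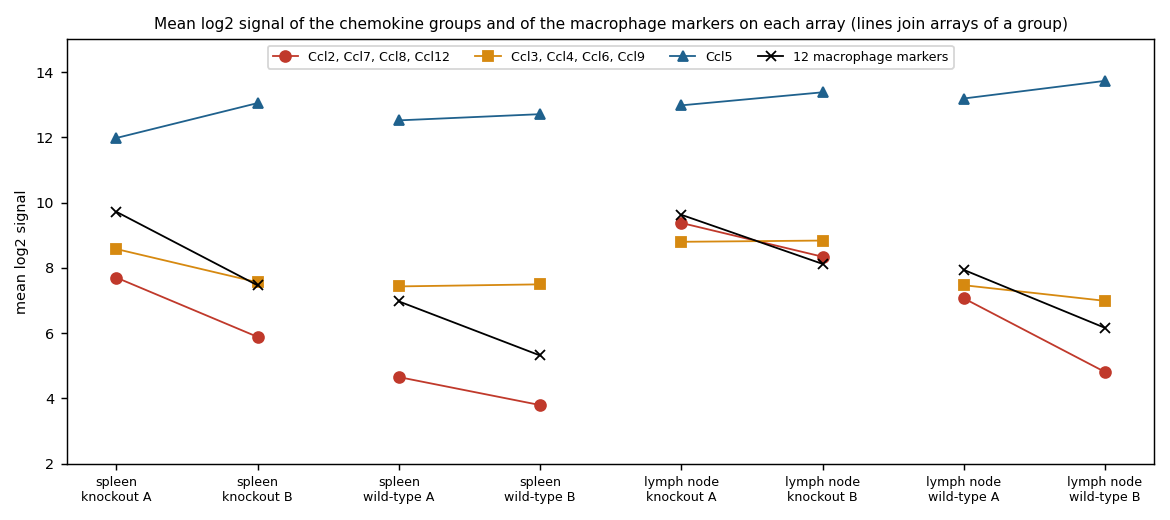
Mean log2 signal on each array of Ccl2, Ccl7, Ccl8 and Ccl12 (red), of Ccl3, Ccl4, Ccl6 and Ccl9 (orange), of Ccl5 (blue) and of 12 macrophage markers (black); lines join the arrays of a group, and heights of different lines are not comparable. The red line and the macrophage markers are higher on array A than on array B in each of the 4 groups, and both are higher on knockout than on wild-type arrays of the same letter and tissue.

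Other leukocyte markers also differed between arrays. The summed neutrophil marker signal was 9680 on knockout spleen array A and 76.2 to 476 on the 7 others. The monocyte marker sum was 1160 and 197 in knockout spleen, against 130 and 135 in wild-type spleen, and 881 of the 1160 came from Chil3, which lay under the floor on 5 of 8 arrays. In lymph node the sum was 394 and 511 in knockout, against 222 and 378 in wild-type. Of the monocyte markers 2 were tested. F13a1 had an averaged difference of 1.70 ± 0.28 (limma adjusted p = 0.203). Fn1 differed by 0.45 ± 0.66 averaged and by -0.19 ± 0.93 in lymph node. Itgam, Vcan and Chil3 did not pass the filter. All 4 plasma cell markers had positive differences in both tissues, with sums of 10900 and 932 in knockout spleen, against 4360 and 1010 in wild-type spleen, and of 2030 and 1040 in knockout lymph node, against 1270 and 481 in wild-type lymph node. The platelet gene Pf4, itself a chemokine, had 1660 and 197 in knockout spleen, against 16.4 and 20.5 in wild-type spleen, and 703 and 643 in knockout lymph node, against 425 and 116 in wild-type lymph node. Gp9, the only other platelet marker tested, differed by 0.27 ± 0.55 averaged and by 0.12 ± 0.77 in spleen. Ppbp and Itga2b did not pass the filter. The part of all these markers in the chemokine differences was not tested. On knockout spleen array A Ccl7, Ccl8, Ccl12, Ccl3 and Ccl4 had their highest spleen signals, and Ccl2, Ccl6, Ccl9 and Ccl5 did not.

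Between tissues 7 of the 9 genes had lower signals in spleen than in lymph node when averaged over genotypes. The 2 with a positive difference were Ccl9 and Ccl6, where 55.7% of all genes tested were above 0. For the brighter Ccl9 probe set all 4 spleen arrays, at 1370 to 3330, lay above all 4 lymph node arrays, at 989 to 1150. Of genes tested 3.82% had spleen arrays all above lymph node arrays, and 1.90%, no member among them, the opposite. The second Ccl9 probe set overlapped between tissues, at 167 to 320 in spleen and 77.9 to 182 in lymph node. The spleen minus lymph node difference was 1.06 ± 0.24 for Ccl9 (2.08-fold, limma adjusted p = 0.240), and Ccl9 had an unadjusted p under 0.05 on the positive side, as 6.23% of genes did. It was -1.16 ± 0.27 for Ccl2, -1.73 ± 0.33 for Ccl7, -2.54 ± 0.87 for Ccl8 and -1.59 ± 0.57 for Ccl3. Ccl5 differed by -0.75 ± 0.31, with spleen signals from 4050 to 8510 and lymph node signals from 8080 to 13600. These 5 genes had an unadjusted p under 0.05 with lower spleen signal (4.52% of genes). Their limma adjusted p ranged from 0.199, for Ccl7, to 0.461. Ccl7 passed the filter through the knockout lymph node arrays alone, so its lower spleen signal is no independent result. Ccl6 differed by 0.05 ± 0.25, and by less than 0 with quantile normalization or without median scaling, and Ccl4 by -0.55 ± 0.56. The median over the members was -1.16, beside 0.06 over all genes tested, and the model called 0 of 11557 genes for tissue, with 1242 (10.7%) at an unadjusted p under 0.05. With a trended robust prior 48 genes were called for tissue, none of them a member.

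The order of the 4 groups was the same for Ccl2, Ccl7, Ccl8, Ccl12 and Ccl3: knockout lymph node was highest, then knockout spleen, wild-type lymph node and wild-type spleen. For Ccl2, Ccl7, Ccl8 and Ccl3 the highest group did not overlap with the next, nor the third with the lowest. Knockout spleen and wild-type lymph node overlapped for each of them. Ccl7 passed the filter through the knockout lymph node arrays alone, so their separate place at the top was fixed in advance for it. For Ccl12 no neighbours in this order were separate. Ccl4 and Ccl6 were also highest in knockout lymph node and second in knockout spleen, but lowest in wild-type lymph node. Ccl9, by its brighter probe set, ran from wild-type spleen through knockout spleen and knockout lymph node to wild-type lymph node, with no overlap between neighbours. How often neighbouring groups were separate over all genes tested was not counted, so these orders are a description and not a result about the members. Ccl5 was highest in wild-type lymph node and lowest in knockout spleen. Knockout lymph node array A had the highest signal of all 8 arrays for 6 of the 9 genes.

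The members other than Ccl5 and Ccl9 varied together, a split drawn after the values were seen. Among Ccl2, Ccl7, Ccl8, Ccl12, Ccl3, Ccl4 and Ccl6 all 21 pairs correlated positively over the 8 arrays, with r from 0.42 to 0.95 and a median of 0.76. The 15 pairs with Ccl5 or Ccl9 ranged from -0.72 to 0.27, and 4 of them were positive. All points come from the same 4 groups, so differences between group means enter every one of these values.

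**Figure D4:**
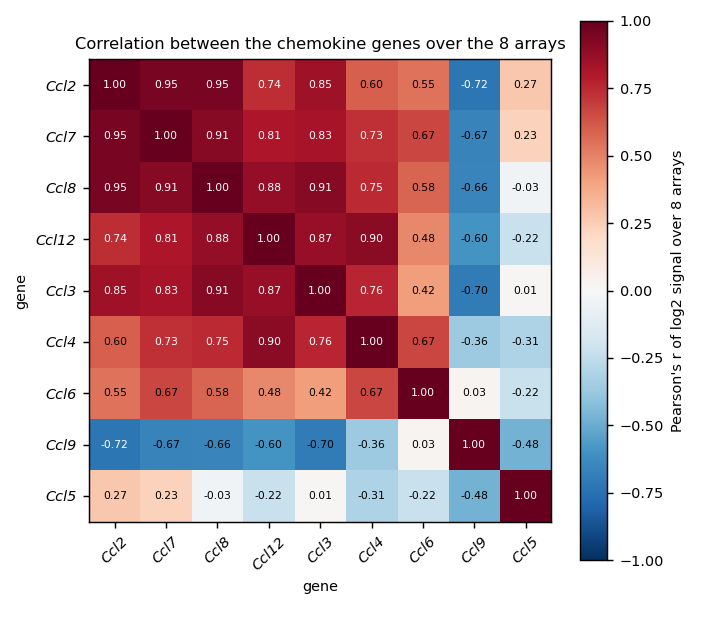
Pearson correlation of log2 signal over the 8 arrays between each pair of the 9 genes. The block of Ccl2, Ccl7, Ccl8, Ccl12, Ccl3, Ccl4 and Ccl6 is positive throughout, from 0.42 to 0.95, while Ccl9 is negative with Ccl2, Ccl7, Ccl8, Ccl12, Ccl3, Ccl4 and Ccl5.

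Among the tested genes outside the set, Ifi207 (r = 0.98), Dsc2 (0.98) and Ddah2 (0.96) followed the mean of Ccl2, Ccl7, Ccl8 and Ccl12 most closely over the 8 arrays. Dsc2, a desmosomal cadherin, had 653 and 150 in knockout spleen, against 126 and 51.1 in wild-type spleen, and 1030 and 679 in knockout lymph node, against 478 and 136 in wild-type lymph node. The mean of Ccl3, Ccl4, Ccl6 and Ccl9 was followed by Slc35a4 (0.96), Csn2 (0.96) and again Ddah2 (0.95). Ccl5 was followed by Rbpj (0.98), the transcription factor of Notch signalling, Zfp942 (0.96) and Zfp36l1 (0.96). Rbpj had 211 and 462 in knockout spleen, against 289 and 393 in wild-type spleen, and 484 and 792 in knockout lymph node, against 614 and 882 in wild-type lymph node. These are the best of 11557 genes over 8 arrays that share the 4 groups, and they are given as a description.

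Few of the receptors of these chemokines were measurable. Of Ccr1, Ccr2, Ccr3 and Ccr8, Ccr3 alone was tested, with an averaged difference of 0.43 ± 1.17, while Ccr1, Ccr2 and Ccr8 did not pass the filter on low signals. All 3 atypical receptors were tested, and Ccrl2, which binds chemerin, was lower on both knockout arrays in each tissue. Its signals were 1970 and 1920 in knockout spleen, against 3380 and 4130 in wild-type spleen, and 1830 and 1610 in knockout lymph node, against 2630 and 3080 in wild-type lymph node. The averaged difference was -0.84 ± 0.21 (limma adjusted p = 0.394). Ackr1, the Duffy receptor of venules, differed by 0.31 ± 0.24, and Ackr2, a scavenger of inflammatory CC chemokines, by 0.14 ± 0.53. Ccl11 and Ccl1, neighbours of Ccl2 and Ccl8 on the chromosome, did not pass the filter.

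Upstream of the chemokines, Tlr4, the receptor for bacterial lipopolysaccharide, had 177 and 126 in knockout spleen, against 16.4 and 2.23 in wild-type spleen, and 269 and 105 in knockout lymph node, against 41.5 and 0.705 in wild-type lymph node. Its averaged difference was 3.33 ± 0.54 (limma adjusted p = 0.203), with both wild-type B arrays under the floor, and it passed the filter through knockout arrays alone. Of 7 listed inducers 5 were tested, 3 higher and 2 lower in knockout on average. The others named by rule were Myd88 at 1.57 ± 0.86, Tlr2 at -0.46 ± 0.28 and Il1b at 0.71 ± 0.49. Of 7 transcription factors 5 were tested, 1 higher and 4 lower, with Irf5 at 0.46 ± 0.24 and Relb at -0.39 ± 0.25 the 2 with the smallest p. Nfkb2 differed by -0.31 ± 0.24 and Rel by -0.18 ± 0.22. Of 6 genes of receptor signalling 4 were higher and 2 lower, and their median was 0.14, with the G protein subunit Gnai2 at 0.17 ± 0.22. None of these genes passed over all genes tested.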

How the data were processed

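The authors deposited 1 linear intensity signal per probe set and array, from MAS5 per the submitters' processing notes; neither its version nor a scaling target or detection call is given there. The 2% trimmed mean of the deposited signals was 248.0 to 248.2 on every array, so arrays had been scaled alike. Of 45101 probe sets 64 controls were left out, and of the others 34945 had 1 gene symbol, 932 several and 9160 none; symbols were updated by gene ID through RefSeq. Array medians ranged over 0.28 on the log2 scale, above the 0.2 tolerance, and were made equal. Signals were floored at the 20th percentile (9.58), and log2 intensity of the deposited signals was fitted in limma 3.58.1 (R 4.3.3), with 4 residual and 2.96 prior degrees of freedom and Benjamini-Hochberg adjustment over 11557 genes. Each gene was represented by its brightest probe set. The number of arrays limits the precision. The fit was tested on simulated data.

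Named were all members and Aire, up to 4 genes of each pathway list by smallest unadjusted p, and the 3 genes most like each chemokine group. Members and lists were chosen with earlier results of these data known. Alternatives covered scaling, floor, filter, probe sets, prior, letter block, a Y-linked covariate and left-out arrays, and, added later, a random block across tissues. Promoters were aligned with Biopython 1.88.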

Additional observations from a re-analysis of the deposited data

How the results depend on the processing

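Across all alternatives run, the averaged knockout minus wild-type difference kept its sign for Ccl2, Ccl7, Ccl8, Ccl12, Ccl3, Ccl4, Ccl6 and Ccl9, and no member passed the adjusted threshold in any comparison. The number of genes called, 0 of 11557 in each comparison, was 1 for tissue with quantile normalization, without median scaling, without a filter, with the mean of probe sets or with genotype and letter as a random block across tissues (correlation 0.187, added after the data were seen). With the floor at the 40th percentile it was 2 for the averaged effect and 3 for tissue. With all probe sets tested it was 2 in spleen, 3 in lymph node and 3 for the average, and with a trended robust prior 1 in spleen, 6 for the average and 48 for tissue. Leaving out 1 array gave 0 to 2 genes for the averaged effect, the 2 without knockout spleen array B. With the letter as a replicate block 0 genes passed in each comparison, and every member's difference was as without it. The letters were not taken as pairs, since the A minus B differences of the groups correlated at 0.06 to 0.31 over genes, the highest between spleen and lymph node of the knockout, where the sex-linked signal also repeats by letter.

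Small differences turned sign. In spleen Ccl5 was at 0.013 with quantile normalization, 0.015 without median scaling and 0.44 without both knockout A arrays, and without those arrays Ccl12 was at -0.51 and Ccl4 at -0.77 in spleen, Ccl5 at 0.18 averaged and Ccl3 at -0.68 for the difference between tissues. The floor at the 40th percentile gave -0.36 for Ccl8 and -0.064 for Ccl3 in the difference between tissues. Ccl6 in spleen minus lymph node was -0.021 with quantile normalization, -0.0505 without median scaling and -0.082 with the mean of probe sets. Leaving out 1 array gave spleen ranges of -0.51 to 4.79 for Ccl12, -0.77 to 1.62 for Ccl4, -0.63 to 0.44 for Ccl5 and -0.13 to 0.53 for Ccl6, and -0.45 to 0.080 for Ccl5 averaged. For the difference between tissues it gave -0.11 to 0.65 for Ccl2, -0.84 to 2.47 for Ccl8, -3.94 to 1.36 for Ccl12, -0.75 to 1.70 for Ccl3 and -0.35 to 0.72 for Ccl5. For spleen minus lymph node it gave -1.15 to 0.047 for Ccl4 and -0.12 to 0.21 for Ccl6. The cause was not tested. With the Y-linked covariate the averaged difference was 6.01 for Ccl8 and 1.75 for Ccl2. Ccl7 was not tested when 4 arrays had to pass the filter, and fits of a single tissue's arrays were made only for that tissue's comparison. Signals under the floor limit Ccl12, Ccl7 and Ccl8 in wild-type arrays.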
